A study of Mus musculus with 9 samples.

Results

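The transcripts present in gastric tumours of PBS-injected gp130-mutant mice were described by the brightness of their probes on Illumina bead arrays. A probe was counted as detected on an array when its deposited detection value was 0.95 or more, and the baseline set comprised the 14925 of 45281 probes that were detected on all 3 PBS arrays. Each gene was represented by its brightest probe, taken as a mean of all 9 arrays, and 10593 of 13001 tested genes were then represented by a baseline probe. Of the 28894 gene names on the array, 36.8% had at least 1 probe detected on all 3 PBS arrays and 50.6% had no probe detected on any of them. Probes just inside the rule had a lowest detection value of 0.9508 and PBS signals of 93.1 to 290.2, and those just outside had a lowest detection value of 0.9498 and PBS signals of 93 to 516.2.

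All mice carried the genotype labelled gp130Y575F/F, were on a mixed 129/BL6 background and were 6 to 8 weeks old. Each received an intraperitoneal injection 60 min before its tumour was resected, of 5 µg recombinant human IL6 in 200 µl PBS, of 5 µg recombinant human IL11 in 200 µl PBS, or of 200 µl PBS alone, with 3 mice per group and 1 array per mouse. The PBS mice were therefore injected animals, and tumour-free stomach and wild-type mice were not analysed here.

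As background, gp130 is the receptor subunit, encoded by Il6st, through which IL6, IL11 and related cytokines activate JAK kinases and the transcription factor STAT3, and SOCS3 is the feedback inhibitor that binds phosphorylated gp130. Mice homozygous for a phenylalanine in place of the gp130 tyrosine that binds SOCS3 and the phosphatase SHP2 develop tumours of the glandular stomach. The gastric surface is lined by pit cells, which secrete mucins, gastrokines and trefoil peptides, while the glands below hold mucous neck, parietal, chief and endocrine cells.

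Secreted epithelial proteins of the REG and gastrokine families were among the brightest transcripts of these tumours, and both families lie in gene clusters on chromosome 6. Gkn1, Gkn2 and Gkn3 are 3 consecutive protein-coding genes there, and Reg3b, Reg3d, Reg3a, Reg2, Reg1 and Reg3g are 6 consecutive ones. The 150 bases before the annotated start of 6 of these genes are shown because these neighbouring genes include several of the brightest secreted products in the set. Sequences are from RefSeq on GRCm38.p6, 5′ to 3′ on the gene's strand, at chr6:78370735-78370884 (plus strand) for Reg3b, chr6:78425833-78425982 (plus) for Reg1, chr6:78468875-78469024 (minus) for Reg3g, chr6:87350916-87351065 (minus) for Gkn1, chr6:87373215-87373364 (plus) for Gkn2 and chr6:87388936-87389085 (minus) for Gkn3. Capitals mark TATAAA, searched on the gene's strand in the window from 40 to 20 bases before the start, and TTCNNNGAA, a STAT-type motif that reads the same on both strands, searched in 250 bases.
Reg3b: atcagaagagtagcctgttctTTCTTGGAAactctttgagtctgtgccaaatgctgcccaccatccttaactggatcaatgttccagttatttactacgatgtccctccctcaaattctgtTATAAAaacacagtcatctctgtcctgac
Reg1: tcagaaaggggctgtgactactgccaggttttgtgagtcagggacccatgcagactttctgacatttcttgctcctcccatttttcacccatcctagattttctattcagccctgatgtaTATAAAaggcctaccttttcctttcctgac
Reg3g: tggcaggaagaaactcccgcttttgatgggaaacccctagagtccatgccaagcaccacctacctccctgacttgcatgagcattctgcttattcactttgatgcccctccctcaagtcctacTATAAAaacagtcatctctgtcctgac
Gkn1: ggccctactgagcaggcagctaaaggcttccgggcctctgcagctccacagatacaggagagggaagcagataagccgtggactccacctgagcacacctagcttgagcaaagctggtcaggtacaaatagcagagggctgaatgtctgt
Gkn2: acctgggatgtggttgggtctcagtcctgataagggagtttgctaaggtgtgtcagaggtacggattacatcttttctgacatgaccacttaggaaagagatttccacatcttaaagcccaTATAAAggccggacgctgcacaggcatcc
Gkn3: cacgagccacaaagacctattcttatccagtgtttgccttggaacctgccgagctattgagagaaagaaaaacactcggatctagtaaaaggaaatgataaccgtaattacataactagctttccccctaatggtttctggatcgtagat
TATAAA was present in the windows of Reg3b, Reg1, Reg3g and Gkn2, ending 23, 24, 21 and 23 bases before the start, and was found in 2.22% of the 27025 promoters of the RefSeq table. A match to TTCNNNGAA was found before Reg3b, ending 120 bases before the start, and 7.18% of all promoters held one in 250 bases. A match is a description of letters and not a binding site. Tff2, Ctse and Dmbt1 are named without a sequence. Shares were not compared between sets of genes, because 49 of the 100 brightest genes and 7413 of the 10593 baseline genes had a promoter in that table.

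The PBS arrays differed more from each other than the cytokine arrays did. Mean probe signal was 398 to 652 on the IL6 arrays, 448 to 524 on the IL11 arrays and 300 to 419 on the PBS arrays, with between 37.4% and 40.6% of probes called detected. Levels are log2 values after background correction and quantile normalization across the 9 arrays, described as log2 levels hereafter. Correlation across baseline genes, which are not independent replicates, was 0.976 to 0.982 among IL6 arrays, 0.984 to 0.987 among IL11 arrays and 0.935 to 0.941 among PBS arrays. PBS mouse 2 had 307 baseline probes at least 2 log2 units below the median of the other 8 arrays, PBS mouse 3 had 77 and PBS mouse 1 had 12, against 1 to 10 on any cytokine array. Probes at least 2 log2 units above that median numbered 55 on PBS mouse 2, 81 on PBS mouse 3 and 10 on PBS mouse 1, against 0 to 18 on the cytokine arrays.

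Many of the low values of PBS mouse 2 belonged to a probe and not to all probes of its gene. The 307 low probes lay in 297 genes, of which 135 had another baseline probe. In 103 of these 135 genes another probe was above the median of the other 8 arrays or less than 0.5 log2 units below it. In 7 all baseline probes were low. Only baseline probes, which by the rule are detected on PBS mouse 2, entered these counts. The following examples were chosen after their values were seen. Eef1b2, which encodes a translation elongation factor subunit, had a probe at 11.53, 6.12 and 10.71 in PBS mice 1, 2 and 3, and another at 11.75, 12.10 and 12.29. Gstk1, a mitochondrial and peroxisomal glutathione transferase gene, had a probe at 12.65, 8.38 and 11.46, and another at 12.47, 12.56 and 11.96. Both genes were thus low on PBS mouse 2 by 1 probe and not by the other one given. The cause was not tested, and each result that rests on PBS mouse 2 is given below with the values of all 3 mice.

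**Figure D1:**
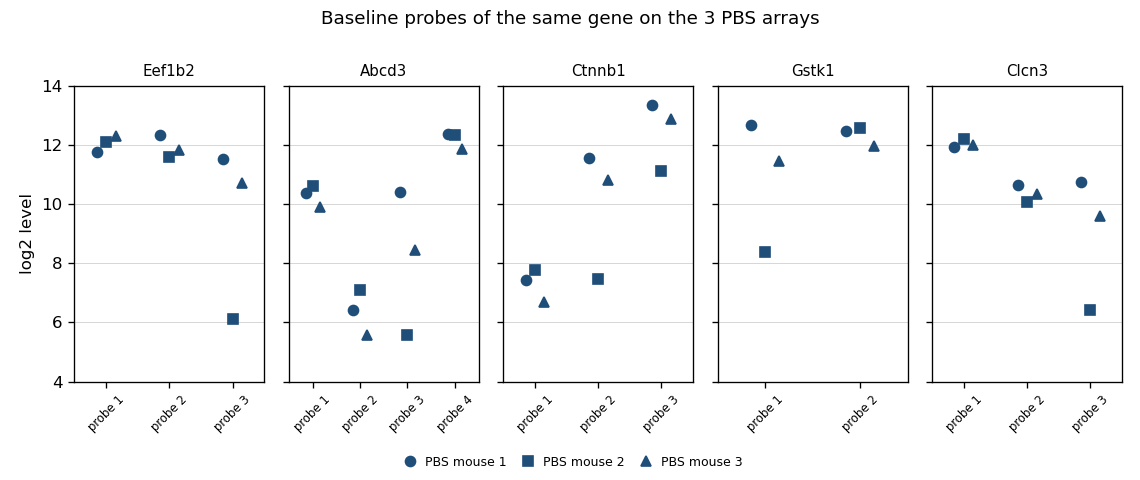
Log2 level (vertical axis) of each baseline probe of Eef1b2, Abcd3, Ctnnb1, Gstk1 and Clcn3 on the 3 PBS arrays, with a column for each probe and a marker shape for each mouse. PBS mouse 2 (squares) lies far below the other mice on 1 or more probes of each gene and near them on another, as for Eef1b2 at 6.12 on 1 probe and 12.10 on another.

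The baseline set spanned a wide range of brightness. Mean PBS levels of the 10593 baseline genes ran from 5.21 to 14.56, with a median of 8.53 and an upper quartile of 10.14. Percentiles are given below as the percentage of baseline genes ranked at or below a gene by mean PBS level, so the median over all baseline genes is 50. A rank is that of a probe's signal, which depends on how well the probe binds as well as on how much transcript is present, so a low rank or a missed detection does not show that a transcript is scarce. Probes of genes that every cell uses illustrate this. Sdha, a subunit of mitochondrial complex II, and Canx, an endoplasmic reticulum chaperone, were detected on 0 PBS arrays, and the chaperone gene Hspa5 on 2.

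The brightest genes encoded ribosomal proteins, antioxidant enzymes, cytoskeletal proteins and secreted products of gastric epithelium. Gpx1, a cytosolic glutathione peroxidase, had the highest mean level, at 14.56 ± 0.13 (SD, n = 3), with raw signals of 17424, 22225 and 24181 in PBS mice 1, 2 and 3. Dmbt1, which encodes a secreted mucosal scavenger protein, was 14.46 ± 0.11, and Gpx2, the glutathione peroxidase of gastrointestinal epithelium, was 14.43 ± 0.09. The gastrokine Gkn3 was 14.40 ± 0.02, the lectin-like secreted protein Reg1 14.38 ± 0.13, and the aspartic protease Ctse of pit cells 14.34 ± 0.04. Outside secretion, the elongation factor Eef1a1 reached 14.42 ± 0.13, the ATP synthase beta subunit Atp5b 14.39 ± 0.03, and Actb 14.35 ± 0.12. With the dimmest baseline probe of each gene, Actb moved from percentile 99.8 to 29.8 and Ctse from 99.8 to 91.4. The means of ranks 1 and 30 differed by 0.25, and differences between neighbouring ranks were not tested.

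Of the 100 brightest genes, 23 had ribosomal protein symbols, compared with 0.718% of all baseline genes. A further 4 were transcripts of the mitochondrial genome, 28 had no current symbol and 45 were other named genes. These 45 included Reg3b, Fth1, Ppia, Krt8, Muc1, Lgals4, Mt1, Gkn2, Tff2 and Ly6d. The 100 genes held 15.7%, 14.5% and 13.2% of the summed baseline signal in PBS mice 1, 2 and 3. Membership was partly shared between tumours, since 60 genes were in the top 100 of each PBS array and 147 in that of any. Of the top 100 by PBS mean, 77 were also in the top 100 by IL6 mean and 83 in that by IL11 mean. The span between the highest and lowest of the 3 PBS levels had a median of 0.25 in the top 100 and 0.60 in all baseline genes, but genes chosen for a mean near the top of the scale have little room for a wide span.

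By the brightest probe of each gene, surface mucous (pit) cell markers had the highest median percentile of the 24 cell-type and tissue marker lists. Baseline probes were found for 11 of the 13 pit markers on the array, and their median percentile was 98.6. With the dimmest baseline probe of each gene the pit median was 97.5, below that of the intestinal list at 98.3. Ctse was at 14.35, 14.38 and 14.30 in PBS mice 1, 2 and 3. Muc1, a membrane mucin, averaged 14.15 ± 0.16 (SD, n = 3), and Gkn2, a gastrokine, was at 14.21, 14.08 and 13.86. Psca, a surface antigen of gastric epithelium, was at 14.17, 13.95 and 13.57, and Gkn1 at 14.20, 13.54 and 13.76. These 5 genes lay at percentiles 98.7 to 99.8, while Vsig1, an adhesion protein gene of gastric epithelium, was near the bottom of the set at 5.39, 5.25 and 5.14. Muc5ac, the defining secreted mucin of pit cells, was detected on 2 PBS arrays and Capn9 on 0. In bulk tissue, fewer cells of a type and less RNA per cell cannot be told apart.

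Of the mucous neck and antral gland markers, 7 of 8 were in the baseline set at a median percentile of 91.4, below the intestinal (97.8) and general epithelial (91.5) lists. Gkn3 was at 14.37, 14.41 and 14.41, and the trefoil peptide gene Tff2 at 14.35, 13.82 and 13.90. Sox9, a transcription factor of progenitor and gland cells, was at 13.60, 12.93 and 13.44. Muc6, the gland mucin, was lower at 9.78, 9.93 and 10.68. Galnt7 was detected on 0 PBS arrays. Chief cell markers were found less completely, at 3 of 7, with Rab3d, a secretory vesicle GTPase, at 12.45, 12.69 and 12.52. Pgc, which encodes pepsinogen C, was at 11.04, 12.82 and 11.19, highest on PBS mouse 2, and Pga5, another pepsinogen gene, was at 8.69, 8.58 and 10.93, highest on PBS mouse 3. Chia1 and Cckar, also chief cell genes, were detected on 0 PBS arrays.

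Neither subunit gene of the parietal cell acid pump was in the baseline set. The proton pump alpha subunit gene Atp4a and the potassium channel subunit gene Kcne2 were detected on 0 PBS arrays, and the pump's beta subunit gene Atp4b on 1. The 4 of 10 parietal list genes in the baseline set, at a median percentile of 40.1, were Clic6, Slc9a4, Slc26a9 and Chrm3, none of which is a subunit of the pump. Clic6, a chloride channel family gene, was the brightest of them at 10.75, 10.86 and 11.73 (percentile 85.6), and Chrm3, a muscarinic receptor gene, the dimmest at 5.79, 5.82 and 7.53. Endocrine markers numbered 5 of 10 with a median percentile of 31.4. Ghrl, which encodes ghrelin, was the brightest of them at 10.87, 11.68 and 13.35, and the somatostatin gene Sst was at 5.99, 5.56 and 8.80, both highest on PBS mouse 3. Gast, the gastrin gene of antral G cells, was detected on 2 PBS arrays.

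Intestinal epithelial markers included 4 bright genes and more that were undetected. Of 13, 5 were in the baseline set at a median percentile of 97.8 and 7 were detected on no PBS array. Lgals4, a galectin of digestive epithelium, was at 14.24, 14.14 and 14.07, Clca1, a secreted product of goblet cells, at 14.54, 14.40 and 12.98, and Spink4, another goblet cell product, at 13.34, 13.16 and 13.57. Vil1, which encodes the microvillus protein villin, was at 12.01, 11.39 and 11.41. The remaining baseline member, the trefoil peptide gene Tff3, was at 7.76, 6.96 and 5.47 (percentile 20.7), and the transcription factor gene Cdx1 was detected on 2 PBS arrays. The genes detected on 0 arrays included the intestinal transcription factor Cdx2, the goblet cell mucin Muc2, the fatty acid binding proteins Fabp1 and Fabp2 and the stem cell receptor Lgr5. General epithelial genes were nearly complete, with 13 of 14 at a median percentile of 91.5. The keratins led them, with Krt8 at 14.32, 14.03 and 14.16 and Krt19 at 13.75, 14.04 and 13.88. Epcam, an epithelial adhesion molecule, was detected on 1 PBS array.

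**Figure D2:**
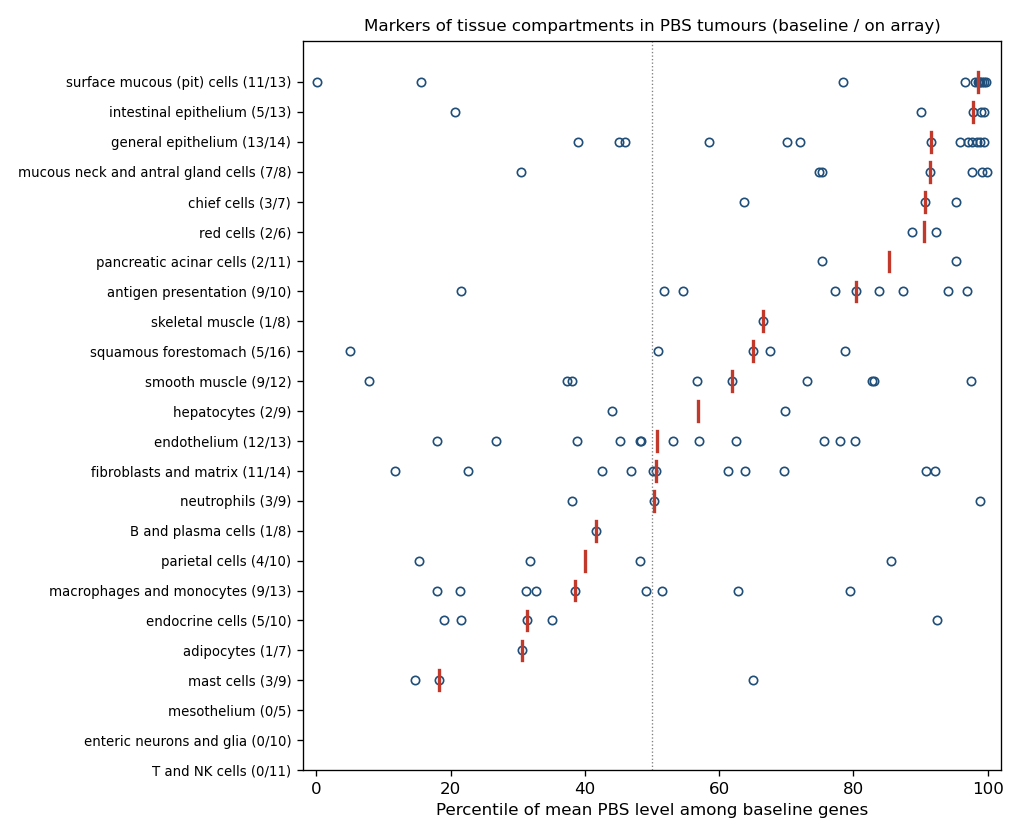
Percentile of mean PBS level (horizontal axis) of each baseline member of the 24 marker lists, with the members in the baseline set out of those on the array in brackets. Circles are genes, red bars the list medians and the dotted line the median of all baseline genes. Pit cell markers lie highest, with a median of 98.6, and T and NK cells, enteric neurons and glia, and mesothelium have no baseline member.

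Markers of supporting tissue lay nearer the middle of the range. Smooth muscle markers numbered 9 of 12 with a median percentile of 61.8, fibroblast and matrix markers 11 of 14 with 50.5, and endothelial markers 12 of 13 with 50.7. Acta2, smooth muscle actin, was the brightest muscle marker at 12.33, 13.56 and 13.82, while the calponin gene Cnn1 was detected on 0 PBS arrays. Acta2 lay at percentile 97.5, or 69.8 by its dimmest baseline probe. Dcn and Sparc, which encode matrix proteins, were the brightest fibroblast genes, Dcn at 12.26, 11.84 and 11.69 and Sparc at 10.98, 12.07 and 12.03. Plvap, a protein of fenestrated vessels, was at 9.85, 10.30 and 11.05. The mean over the 9 muscle genes was 8.42 to 8.68 in IL6 tumours and 8.58 to 9.30 in IL11 tumours. It was 8.78, 9.57 and 9.86 in PBS mice 1, 2 and 3. Of the 9 genes, 8 were lowest on PBS mouse 1, against 4026 of all 10593 baseline genes.

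Leukocyte lists differed in how many members were in the baseline set. None of 11 T and NK cell markers was in it. Of these, 7 were detected on 1 or 2 PBS arrays, and Cd4, Cd8a, Gzmb and Il2rb on 0. Of 8 B and plasma cell markers, Pou2af1, a coactivator of B cells, was in the set at 7.20, 8.56 and 8.29. Macrophage and monocyte markers numbered 9 of 13 with a median percentile of 38.6. Cd14, an endotoxin coreceptor, was at 10.80, 9.55 and 11.21, Lyz2, myeloid lysozyme, at 7.96, 10.59 and 9.46, and C1qb, a complement component of macrophages, at 7.62, 9.24 and 9.04. Of the 9, 7 were highest on PBS mouse 2, against 3949 of all 10593 baseline genes. The granule protein lactoferrin (Ltf), listed with neutrophils, was at 13.91, 13.44 and 14.24, but it is also made by glandular epithelium, and the neutrophil genes Mpo, Cxcr2, Csf3r, Camp and Ngp were detected on 0 PBS arrays. S100a8, a calprotectin subunit of neutrophils, was at 9.10, 7.28 and 9.27.

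Antigen presentation genes had a higher median percentile than the leukocyte lists by the brightest probe of each gene, with 9 of 10 in the set at 80.4. Their percentiles ran from 21.5 to 96.9, and Ltf of the neutrophil list lay above them all at 98.8. The class I gene H2-D1 was at 12.84, 13.02 and 13.14 and B2m at 11.90, 12.41 and 12.51. The class II chaperone Cd74 was at 10.27, 11.88 and 11.70, and the class II gene H2-Eb1 at 9.46, 10.98 and 10.57. Both were lowest on PBS mouse 1, as were 7 of the 9 genes, against 4026 of all 10593 baseline genes. Using the dimmest in place of the brightest baseline probe of each gene moved this list's median percentile to 64.1, close to the 62.7 of the neutrophil list. That choice moved Cd74 from percentile 87.4 to 53.7. Among neighbouring tissues, 2 of 6 red cell genes were in the set, the haemoglobin genes Hba-a1 (10.93, 11.30 and 12.11) and Hbb-b1 (11.47, 11.72 and 12.66), and 2 were detected on 0 PBS arrays. Of 9 hepatocyte genes, 2 were in the set, at percentiles 44.0 and 69.7. Another 6, Alb and Fga among them, were detected on 0 PBS arrays. Of 8 skeletal muscle genes, 1 was in the set, at percentile 66.5. Another 5, Ckm and Myh4 among them, were detected on 0 PBS arrays. Of 11 pancreatic acinar genes, Cela1 and Clps were in the set, and Cpa1, Prss2, Cel and Cela3b were detected on 0 PBS arrays.

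The cytokine pathway that the mutation affects was represented by 2 of 9 ligands, 4 of 8 receptor chains, 9 of 11 JAK and STAT genes and 10 of 11 feedback and adaptor genes. Among the ligands, Il11 was at 9.77, 7.10 and 5.27 in PBS mice 1, 2 and 3, a span of 4.50, and Ctf1, cardiotrophin 1, was at 7.83, 7.75 and 8.35. Il6 was detected on 0 PBS arrays and oncostatin M (Osm) on 2. Of the receptor chains outside the set, Lifr and Il27ra were detected on 2 PBS arrays and Il31ra and Cntfr on 0. The receptor chain that binds IL11, Il11ra1, was at 10.60, 11.47 and 11.38, at percentile 86.1. The IL6-binding chain Il6ra was at 6.63, 7.36 and 6.33, at percentile 21.4. Il6st itself was at 8.41, 8.43 and 8.16, and the oncostatin M receptor chain Osmr at 8.99, 8.42 and 7.96. These percentiles rank probes, so they do not give the ratio of receptor chains.

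Stat3 was the brightest of the JAK and STAT genes at 11.36, 11.11 and 10.44 (percentile 84.4), with a second baseline probe that would place it at 62.0. Jak2 was at 9.05, 8.93 and 8.93, and Jak1 at 6.04, 5.27 and 5.86. Feedback genes and adaptors had a median percentile of 69.0. Socs3 was at 12.22, 11.64 and 10.88 (percentile 89.9), and Ptpn11, which encodes SHP2, was at 11.53, 11.17 and 11.45 (percentile 88.1, or 53.9 by its dimmest baseline probe). Socs1 was detected on 0 PBS arrays. Among the genes given with levels in this paragraph, the widest span was 1.33, for Socs3, compared with 4.50 for Il11. Other members of these lists are not given here.

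Transcripts known to be raised by STAT3 were largely present, with 13 of 16 in the set at a median percentile of 71.4. Ccnd1, cyclin D1, was at 12.66, 12.61 and 12.33, the transcription factor gene Cebpb at 11.62, 11.46 and 11.19, the kinase gene Pim3 at 11.63, 10.93 and 10.79, and the survival gene Mcl1 at 12.16, 8.16 and 11.41. The low Mcl1 value came from PBS mouse 2. Myc was near the bottom of the set at 5.67, 5.27 and 5.52. The acute phase and antimicrobial list had 13 of 17 members at a median percentile of 77.8, or 63.2 without PBS mouse 1. Reg3b was at 14.20, 14.16 and 14.29, Lrg1, a secreted glycoprotein of the acute phase, at 13.73, 12.93 and 13.01, and Pigr, which carries immunoglobulin A across epithelium, at 12.44, 10.58 and 12.54. Lcn2, the siderophore-binding protein lipocalin 2, was at 7.42, 5.82 and 6.02, and Nos2 was detected on 0 PBS arrays.

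**Figure D3:**
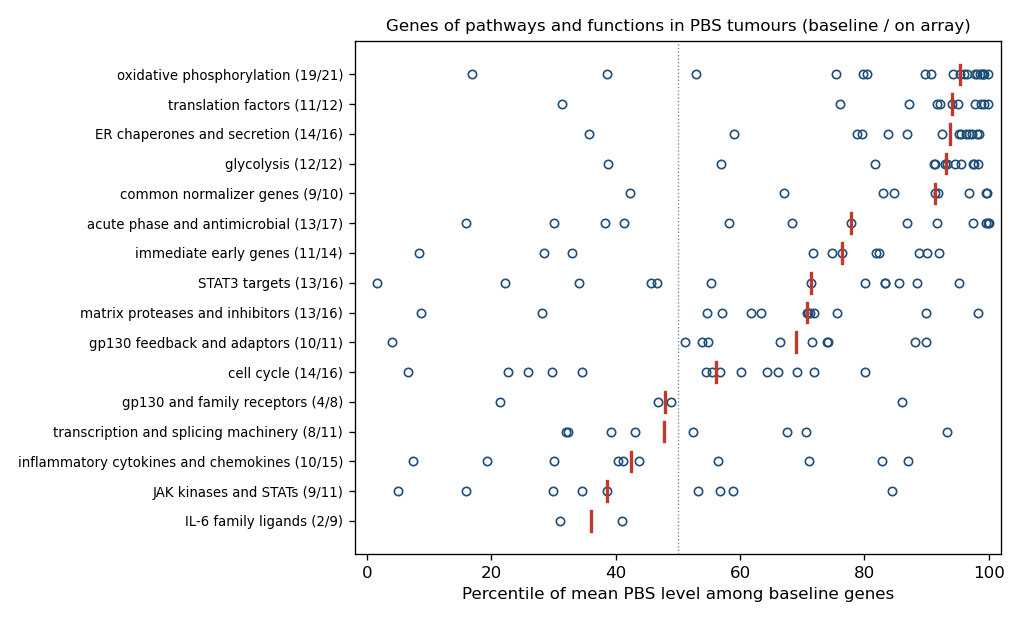
Percentile of mean PBS level (horizontal axis) of each baseline member of 16 pathway and function lists, drawn as for the marker lists. Oxidative phosphorylation lies highest with a median of 95.3, and JAK kinases and STATs and the 2 baseline ligands of the IL-6 family lie below the median of all baseline genes, at 38.6 and 36.0.

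Housekeeping and biosynthetic lists filled the upper range. Oxidative phosphorylation had 19 of 21 members at a median percentile of 95.3, translation factors 11 of 12 at 94.0, endoplasmic reticulum chaperones and secretory factors 14 of 16 at 93.8, and glycolysis 12 of 12 at 93.1. P4hb, a protein disulfide isomerase, was at 13.58, 13.90 and 13.73, Xbp1, a regulator of secretory capacity, at 13.21, 13.58 and 13.74, and Ldha at 13.03, 13.26 and 13.27. The glycolysis median moved to 78.7 with the dimmest probes, since Tpi1, Gpi1 and Pfkl each had a bright and a dim baseline probe. Transcription and splicing genes were lower, 8 of 11 at 47.8, with Polr2a, the large subunit of RNA polymerase II, at 8.52, 8.17 and 7.65. Immediate early genes numbered 11 of 14 at a median percentile of 76.5. Egr1 was at 12.75, 11.82 and 11.13, and Ier3, a stress-response gene, at 12.14, 11.62 and 10.62, both highest on PBS mouse 1.

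The PBS tumours had the widest spread of the 3 groups. The median SD per baseline gene was 0.21 in IL6 tumours, 0.17 in IL11 tumours and 0.32 in PBS tumours, and the largest SD fell in the IL6 group for 2798 genes, the IL11 group for 1355 and the PBS group for 6440. Spans over the 3 PBS tumours were at most 1 log2 unit for 77.0% of baseline genes, and 461 genes (4.35%) spanned 2 or more, a 4-fold difference between tumours. Without background correction this count was 243. The tumour farthest from the middle one was PBS mouse 2 as a low value in 189 of these genes and as a high value in 46. PBS mouse 3 was farthest and low in 56 and high in 84, and PBS mouse 1 was farthest and low in 36 and high in 50. Leaving out PBS mouse 2 left 161 genes with such a span, leaving out PBS mouse 1 left 270 and leaving out PBS mouse 3 left 272, where a span over 2 tumours is smaller by construction. In 174 of the 461, all 6 cytokine-treated levels lay inside the PBS range.

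Immunoglobulin transcripts were highest on PBS mouse 2. Of 10 baseline genes with immunoglobulin heavy, kappa or lambda names, 8 were highest on PBS mouse 2 and 8 lowest on PBS mouse 1. Their spans had a median of 4.12. Over all 10593 baseline genes, 3949 were highest on PBS mouse 2 and 4026 lowest on PBS mouse 1. Ighm, the immunoglobulin M heavy chain, was at 5.31, 13.39 and 5.75 in PBS mice 1, 2 and 3, and at 4.58 to 5.41 in the 6 cytokine-treated tumours. Igkc, the kappa light chain constant region, was at 9.78, 14.54 and 13.43 in PBS mice, and at 9.21 to 13.05 with cytokine. Ighm thus stood apart on a single array, while Igkc was high on 2 PBS arrays and varied with cytokine too. In the same tumour, Lyz2, Cd74 and Pou2af1 were at their highest, and Pou2af1 was the 1 of 8 B and plasma cell markers in the set. Cd79b and Mzb1 of that list were detected on 2 PBS arrays, and Ms4a1 and Jchain, the joining chain of secreted immunoglobulin, on 0. The part of B-lineage cells in these values was not tested.

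Krt14 and Krt13, keratins of stratified epithelium, were highest on PBS mouse 3. Krt14, a keratin of the basal layer, was at 7.25, 6.98 and 14.18 in PBS mice, and Krt13, a keratin of the layers above it in the forestomach, at 6.90, 6.75 and 12.09. Cytokine-treated tumours ranged from 6.74 to 11.21 for Krt14, the highest being 1 IL11 tumour, and from 6.18 to 8.01 for Krt13. Outside the squamous list, and chosen after their values were seen, Cnfn, a cornified envelope gene, was at 5.46, 5.29 and 10.37, and the arginase gene Arg1 at 7.94, 7.04 and 11.94. The squamous forestomach list had 5 of 16 members in the set and a median percentile of 65.0, which was 26.4 without PBS mouse 3. Krt14 and Krt13 were the 2 of these 5 that were highest on PBS mouse 3, and the other 3 were lowest there. Of those, Ivl, the cornified envelope protein involucrin, was at 11.12, 10.51 and 9.72, Sprr1a, another envelope gene, at 9.53, 9.98 and 9.45, and Lor, which encodes loricrin, at 5.74, 5.86 and 5.58. Krt5, Trp63 and Krt15, further basal squamous genes, were detected on 1 PBS array each, and Dsg3 on 0, and the part of forestomach tissue in these values was not tested.

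Matrix metalloproteinase and Il11 transcripts were highest on PBS mouse 1 and lowest on PBS mouse 3. Mmp13, interstitial collagenase, was at 12.49, 11.05 and 6.25, Mmp10, stromelysin 2, at 11.82, 10.78 and 7.96, Mmp3, stromelysin 1, at 9.74, 6.68 and 5.18, and Mmp9, a gelatinase, at 10.29, 8.98 and 7.23. Il11, at 9.77, 7.10 and 5.27, ran in the same order of tumours. The 13 baseline genes of the protease list were highest on PBS mouse 1 in 9 cases and lowest on PBS mouse 3 in 9. Mmp14 and Mmp2 did not follow, with Mmp2 at 9.26, 10.10 and 10.32. A further baseline probe of Mmp13 had a mean of 5.45, near the bottom of the set. Mmp13, Mmp3 and Mmp10 lie within 6 consecutive protein-coding genes on chromosome 9. Cell cycle genes were ordered likewise, with 12 of 14 highest on PBS mouse 1 and 13 lowest on PBS mouse 3. Mki67, the proliferation antigen, was at 10.31, 9.60 and 8.71, and the list's mean was 9.17, 8.54 and 7.94. Over all 10593 baseline genes, 3317 were highest on PBS mouse 1 and 3986 lowest on PBS mouse 3. The means of the smooth muscle list ran the other way across the same tumours, and the part of tissue composition in these values was not tested.

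**Figure D4:**
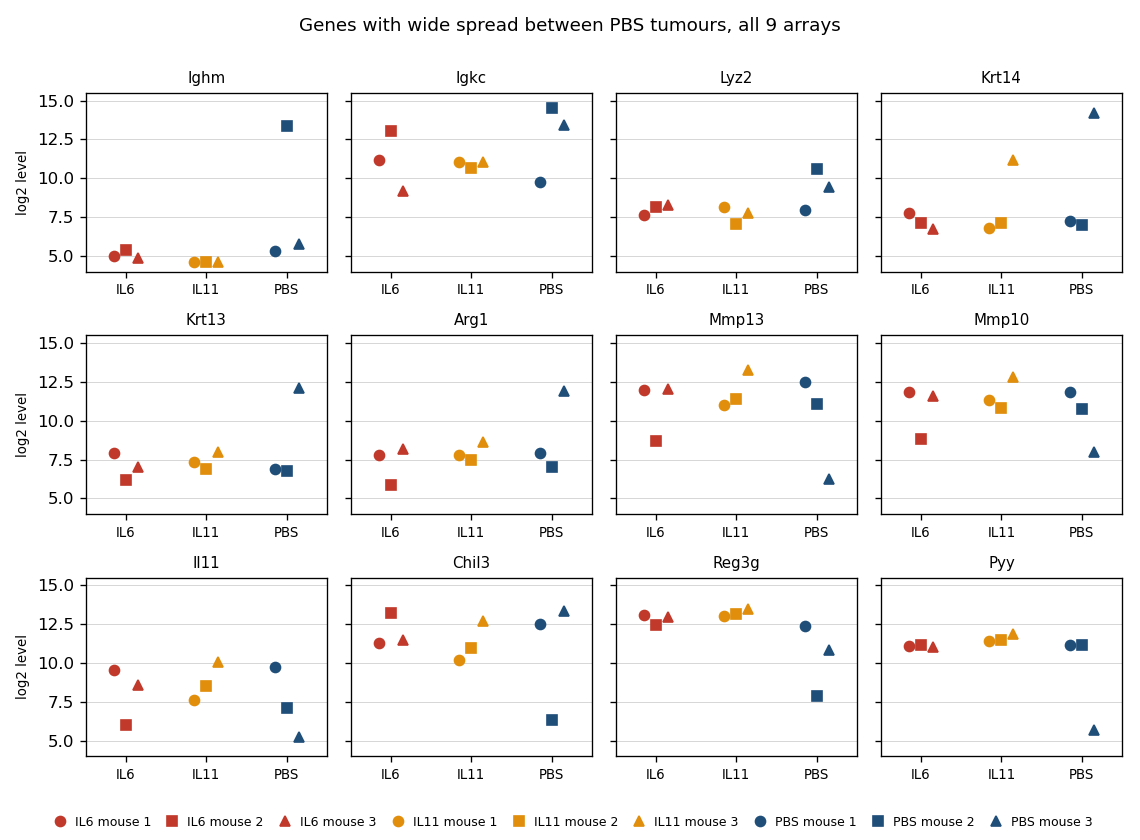
Log2 level (vertical axis) of 12 genes in each of the 9 tumours, by group, with a marker shape for each mouse of a group. Ighm is high on PBS mouse 2 alone, Krt13 and Arg1 on PBS mouse 3, and Mmp13, Mmp10 and Il11 are lowest on PBS mouse 3, while cytokine-treated tumours also differ in Mmp13 and Il11.

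Some genes with a wide span were low on 1 PBS array. The chitinase-like protein gene Chil3 was at 12.52, 6.35 and 13.35, Reg3g at 12.41, 7.88 and 10.86, and the splicing regulator of epithelial cells Esrp1 at 11.50, 6.02 and 10.32, each lowest on PBS mouse 2. Pyy, a peptide hormone gene, was at 11.14, 11.16 and 5.67, lowest on PBS mouse 3. Reg3g and Esrp1 have 1 probe each, so no second probe could be compared, and most low genes of PBS mouse 2 that had another baseline probe were not low by it. The span of 4.53 for Reg3g therefore rests on 1 probe on that array. Reg3b and Reg1, with spans of 0.13 and 0.25, lay near the top of the scale, and their spread was not compared with that of Reg3g.

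**Figure D5:**
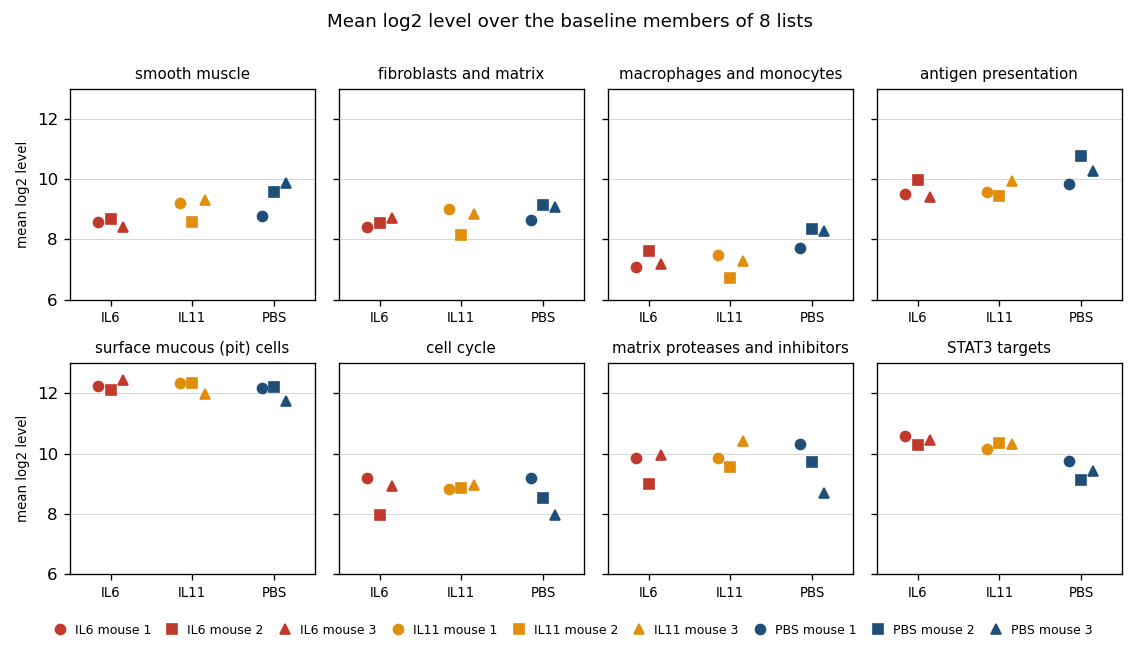
Mean log2 level (vertical axis) over the baseline members of 8 lists in each of the 9 tumours, by group, with a marker shape for each mouse of a group. PBS mice 1, 2 and 3 are at 9.17, 8.54 and 7.94 for cell cycle genes and at 8.78, 9.57 and 9.86 for smooth muscle genes, opposite orders of the same tumours.

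Nearly all baseline transcripts remained detected after cytokine. Of the 14925 baseline probes, 14091 (94.4%) were detected on all 9 arrays and 22 on no cytokine array. In limma, 35 baseline genes passed an adjusted p of 0.05 for IL6 against PBS, 30 higher and 5 lower with IL6, which is 0.33% of them against a background of 0.277% of the 13001 genes tested, 0.238% being higher with IL6, and 0.0415% of the 2408 tested genes outside the baseline set. For IL11 against PBS 15 passed, 12 higher and 3 lower with IL11, which is 0.142% against a background of 0.131%, 0.108% being higher with IL11, and 0.0831% of genes outside the set. The background includes the baseline genes themselves, which hold 35 of its 36 calls for IL6 and 15 of its 17 for IL11. Both shares therefore lie near it by construction, and no conclusion is drawn from that. The shares outside the set were lower, but they rest on 1 called gene for IL6 and 2 for IL11. The IL6 and IL11 comparisons also share the PBS arrays. The median log2 change over all baseline genes was -0.06 with IL6 and -0.05 with IL11. The IL6 count was 429 without PBS mouse 1, 18 without PBS mouse 2 and 30 without PBS mouse 3, and the IL11 count 289, 4 and 10. The IL6 count was 1 without IL6 mouse 1, 3 without IL6 mouse 3 and 19 to 21 without any other cytokine-treated mouse. The IL11 count was 9 without IL6 mouse 2 and 0 without any other cytokine-treated mouse, where 980 to 1485 baseline genes had an unadjusted p under 0.05 in limma. Median scaling in place of quantile normalization called 1299 and 63, 1294 and 62 of them higher with cytokine. Under median scaling the median change of all tested genes was 0.36 with IL6 and 0.26 with IL11.

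Genes with higher levels in IL6 tumours than in PBS tumours included both bright and dim members of the baseline set. Socs3 was at 13.79, 13.93 and 13.98 in IL6 tumours, against 12.22, 11.64 and 10.88 in PBS tumours, a log2 change of 2.32 ± 0.29 (SE, limma adjusted p = 0.0133). In IL11 tumours Socs3 was at 13.41, 13.37 and 13.50, a change of 1.85 ± 0.29 with an adjusted p of 0.0545 in limma. Pim3 was at 13.36, 13.24 and 13.39 in IL6 tumours and at 12.83, 13.16 and 13.01 in IL11 tumours, against 11.63, 10.93 and 10.79 in PBS tumours. Hspa1b, an inducible Hsp70 gene whose probe may also read its near-identical neighbour Hspa1a, was at baseline percentile 8.13 and at 9.61, 8.87 and 9.53 in IL6 tumours, against 6.15, 5.67 and 6.01 in PBS tumours. Socs3 and Pim3 did not overlap between either cytokine group and PBS. Both belong to lists chosen with earlier results of these data known, and the share of all tested genes without overlap is not given here. Of the 13 baseline STAT3 targets, 3 rose and 0 fell in the IL6 fit, where 0.238% of all tested genes rose, and 1 rose and 0 fell in the IL11 fit, where 0.108% rose. With the replicate number as a block, and in the fits above whose IL11 count was 0, the single IL11 call was lost with the others.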

How the data were processed

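The deposited probe intensity values are raw bead signals from BeadStudio 3.4.0 (per the file headers, neither background-subtracted nor normalized). A deposited fraction per probe and array is headed as a detection p-value but increased with signal (Spearman rho 0.985 to 0.99 per array), so it was read as 1 minus the detection p. The tools lumi and Partek are named in the submitters' processing notes without versions. The authors' processed table was not used, because its row identifiers match no probe column.

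From the intensity values, log2 levels were computed with limma 3.58.1 in R 4.3.3 by neqc on all 9 arrays, which infers negative controls from detection p, uses an offset of 16 and ends in quantile normalization. Names came from the RefSeq gene table of GRCm38.p6, and 27400 probes matched a current symbol, 8300 an older one and 9581 kept the name in the file. Probes detected on at least 3 of 9 arrays entered the test, with the probe of highest mean standing for each gene, which left 13001 genes. Contrasts used lmFit and eBayes with a mean per group, two-sided, with Benjamini-Hochberg adjustment over all genes. The fit was tested on simulated data. Ranks, spans and list medians are descriptions with no test, and n = 3 arrays per group limits their precision.

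The baseline rule, the 40 lists (24 of cell types and tissues, 16 of functions, 475 genes) and the alternatives were chosen with earlier results of these data known. Genes eligible for naming were the 30 brightest, the 15 with the largest span, and the 10 smallest p per contrast. From each list they were up to 6 brightest, 3 widest and all undetected members, and every member of the cytokine pathway lists. Only some of these genes are named in the text. Further genes were chosen after their values were seen, among them Eef1b2, Gstk1, Cnfn, Arg1, Reg3b and the other members of the 100 brightest. Alternatives covered detection threshold, background correction, normalization, probe choice, filter, array weights, replicate block and leaving out arrays.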

Additional observations from a re-analysis of the deposited data

How the results depend on the processing

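The count of probes detected on all 3 PBS arrays was 13035 at a detection value of 0.99, 14091 on all 9 arrays and 20702 on at least 1 PBS array, and 15393 to 16094 when a PBS array was left out. Of the 100 brightest genes, 74 to 100 were shared with each alternative, fewest with the dimmest baseline probe of each gene. That choice moved the percentile of 169 of the 289 list genes in the baseline set by more than their SD, with a median shift of 8.99 points, while other normalizations moved 0. All baseline genes were re-ranked together by their dimmest probes, so a shift does not measure disagreement between probes of the same gene. The count of genes spanning 2 or more was 243 without background correction and 161 to 272 when a PBS array was left out.

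Counts of called baseline genes depended on most choices. For IL6 they were 1299 with median scaling, 22 with no filter on probes, 14 with array weights, 9 without PBS mice 2 and 3, and 1 to 429 when 1 array was left out. For IL11 they were 63 with median scaling, 4 with the dimmest probe, 7 with array weights, 0 without PBS mice 2 and 3 (818 at an unadjusted p under 0.05 in limma), and 0 to 289 when 1 array was left out, against 1598 at that unadjusted p with all arrays. The cause was not tested, and the median change of all genes under median scaling is given above. With PBS mouse 1 alone left in its group, its spread is assumed to be that of the other groups. With the replicate number as a block, 19 baseline genes were called for IL6 and 0 for IL11 (1511 at an unadjusted p under 0.05 in limma). Deviations of same-numbered arrays correlated at -0.16 to 0.34. With no differently numbered arrays set beside them, these values cannot tell whether the numbers pair the mice. The alternative with the authors' processed values was not run, since its rows could not be matched to probes.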

Other observations

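The reverse of the baseline rule picked out probes that were not detected in PBS tumours. A total of 32 probes were detected on all 6 cytokine arrays and on 0 PBS arrays. Many of them lay near the detection limit on the cytokine arrays too, such as that of Stxbp4 at 5.16 to 5.56. Hamp and Gcnt2, given next, were among those with higher cytokine levels and were chosen after their values were seen. Hamp, which encodes the iron-regulating hormone hepcidin, was at 6.32, 8.84 and 5.71 in IL6 tumours and at 6.11, 6.82 and 5.52 in IL11 tumours, against 4.45, 4.41 and 4.50 in PBS tumours. The detection rule that chose it favours a gap between cytokine and PBS values. It did not pass in limma (adjusted p = 0.198 with IL6 and 0.331 with IL11), and its fitted change is measured against undetected values. A probe of Gcnt2, a glycosyltransferase gene, was at 6.18, 6.91 and 6.72 in IL6 tumours and at 5.88, 5.69 and 6.39 in IL11 tumours, against 4.53, 4.59 and 4.98 in PBS tumours. Gcnt2 also has a bright baseline probe, at 11.25, 10.49 and 11.56 in PBS tumours, so the gene itself was not missing there.

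In the opposite direction, 22 probes were detected on all 3 PBS arrays and on 0 cytokine arrays. Most lay near the detection limit. A probe of Coro1a, an actin regulator of leukocytes, was at 4.62 to 5.17 in cytokine-treated tumours and at 5.68, 7.98 and 6.41 in PBS mice 1, 2 and 3. A probe of Cd8b1, a T cell coreceptor gene, was at 4.68 to 5.13 in cytokine-treated tumours and at 5.29, 7.18 and 5.21 in PBS tumours, highest on PBS mouse 2, as were the immunoglobulin transcripts. Other probes of Coro1a and Cd8b1 were detected on all 9 arrays. These genes were chosen after their values were seen.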
